A study of Homo sapiens with 14 samples.

Results

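The genes described here are the Wnt ligands, their receptors and the feedback genes of the pathway, 41 genes in all, followed in 2 prostate cancer cell lines. They were picked by gene symbol, with earlier results of these data known. The list holds every symbol of the WNT and FZD families and the co-receptors LRP5, LRP6, ROR1, ROR2 and RYK. It also holds AXIN2, LGR4, LGR5, RNF43, ZNRF3, DKK1 and TNFRSF19. All 41 were listed among the 44591 genes of the LNCaP table and among the 24199 features of the DU145 table. RNA was sequenced from parental LNCaP cells without a named treatment and from LNCaP-ENZ cells, an enzalutamide-resistant line kept in 20 µM enzalutamide (ENZ, a prostate cancer drug), which the design text of the series says was made by 30 days of treatment. Each of these arms is 1 library, although the methods of the study state 3 replicates. DU145 cells carried a lentiviral non-target shRNA (shCON, 3 libraries) or a lentiviral shRNA against the transcription factor PAX6 (shPAX6, 3 libraries). Both DU145 lines are stable subclones, so a difference between subclones and a difference caused by the knockdown cannot be told apart, and the sources used here do not give which of the study's PAX6 hairpins was sequenced.

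Wnt ligands are secreted, lipid-modified proteins that bind a Frizzled receptor together with a co-receptor. With LRP5 or LRP6 as the co-receptor, binding stops the destruction of β-catenin, which then enters the nucleus and joins TCF/LEF factors on target genes, and with ROR1, ROR2 or RYK it feeds other branches that do not need β-catenin. The pathway limits itself through genes that it switches on: AXIN2 rebuilds the destruction complex, RNF43 and ZNRF3 remove Frizzleds from the cell surface unless an R-spondin holds them off through LGR4 or LGR5, and DKK1 blocks LRP5 and LRP6. TNFRSF19 (TROY) is a receptor of the TNF family and a known Wnt target gene. In the prostate, Wnt signalling takes part in budding of the gland, and its ligands and receptors are altered in many advanced tumours.

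The largest difference of any member was the near loss of TNFRSF19 RNA in the LNCaP-ENZ library, where LGR4, FZD5 and WNT5A were also lower. In the 3 shPAX6 libraries of DU145 no member passed the adjusted test, and the changes of smallest p were a lower WNT7B and a higher DKK1. The sequences just upstream of the start sites are shown first for TNFRSF19, LGR4 and FZD5, the 3 members with the most counts among those past 2-fold in LNCaP-ENZ cells, and for DKK1, the most abundant member in DU145. They are RefSeq sequences on GRCh38.p14, another build than the GRCh37 of the expression tables, and each ends at the last base before the annotated start. TNFRSF19 has 2 annotated starts. In the first 4 sequences capitals mark CpG dinucleotides.
TNFRSF19, upstream start, chr13:23570162-23570411, plus strand: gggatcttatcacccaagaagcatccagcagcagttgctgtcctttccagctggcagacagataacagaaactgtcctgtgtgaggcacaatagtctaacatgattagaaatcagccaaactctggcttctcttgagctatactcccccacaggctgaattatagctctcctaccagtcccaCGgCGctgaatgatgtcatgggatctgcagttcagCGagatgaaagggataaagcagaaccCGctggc
TNFRSF19, downstream start, chr13:23579110-23579359, plus strand: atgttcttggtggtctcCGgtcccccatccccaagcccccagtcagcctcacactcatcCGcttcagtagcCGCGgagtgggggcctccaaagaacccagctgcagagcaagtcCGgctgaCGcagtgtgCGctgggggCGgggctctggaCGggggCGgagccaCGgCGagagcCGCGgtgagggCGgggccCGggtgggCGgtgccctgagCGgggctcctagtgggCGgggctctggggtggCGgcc
LGR4, chr11:27472791-27473040, minus strand: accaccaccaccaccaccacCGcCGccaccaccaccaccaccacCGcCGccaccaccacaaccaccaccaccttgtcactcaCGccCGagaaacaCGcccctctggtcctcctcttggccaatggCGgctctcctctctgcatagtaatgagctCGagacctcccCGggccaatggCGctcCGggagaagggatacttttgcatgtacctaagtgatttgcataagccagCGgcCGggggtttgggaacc
FZD5, chr2:207769907-207770156, minus strand: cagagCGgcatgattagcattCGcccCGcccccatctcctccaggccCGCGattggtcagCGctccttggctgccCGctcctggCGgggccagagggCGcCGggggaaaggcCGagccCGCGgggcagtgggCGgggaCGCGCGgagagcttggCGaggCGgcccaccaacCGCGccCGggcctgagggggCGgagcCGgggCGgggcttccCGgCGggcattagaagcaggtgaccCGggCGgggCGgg
The 2 TNFRSF19 starts differed in composition, with 4 CpG in the 250 bases before the upstream start and 20 before the downstream start. LGR4 had 14 CpG and FZD5 had 30 CpG in the same length.

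In the DKK1 promoter, capitals mark the letters CTTTGAA, 1 of the 2 forms searched (CTTTGAT and CTTTGAA, on either strand) of the site bound by TCF/LEF factors.
DKK1, chr10:52314031-52314280, plus strand: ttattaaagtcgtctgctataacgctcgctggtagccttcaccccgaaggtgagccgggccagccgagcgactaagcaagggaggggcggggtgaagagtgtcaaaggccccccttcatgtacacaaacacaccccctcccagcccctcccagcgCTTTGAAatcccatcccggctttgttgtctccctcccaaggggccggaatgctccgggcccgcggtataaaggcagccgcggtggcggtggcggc
These letters began 95 bases before the DKK1 start. Of the 41 members, 29 had an entry in the promoter table, with 34 windows of 300 bases (250 before and 50 after the start), and 1 window held either form, against 6.86% of all 35116 windows of that table. The member windows were rich in GC, with a median of 70.8% against 58.7% for all windows, and their median number of CpG was 29.5 against 14. AXIN2, FZD2, FZD3, FZD6, FZD7, FZD10, LGR5, LRP6, WNT7B, WNT10B, WNT11 and ZNRF3 had no entry.

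Before any member is compared, a few facts of the libraries apply to all of them. The LNCaP libraries held 20468001 (parental) and 17945722 (ENZ) counts, with the luminal markers KLK3, KLK2, TMPRSS2 and FOLH1 present in both. In DU145 these 4 genes lay between 0 and 0.058 FPKM in all 6 libraries. PAX6, the targeted gene, measured 0.839, 1.23 and 1.57 FPKM with the control hairpin and 0.0153, 0.274 and 0.0778 FPKM with the PAX6 hairpin, lower in all 3 (limma, log2 fold change -2.69, Benjamini-Hochberg adjusted p = 0.054). The shPAX6 libraries 1 and 2 stood apart from the rest, with mean correlations to their own group of 0.95 and 0.952, against about 0.986 in every shCON library. Fold changes followed the GC content of the transcripts in both tables, with Spearman's rho of -0.36 over 12009 DU145 genes and 0.376 over 12490 LNCaP genes. In bulk RNA, fewer cells that express a gene and less RNA per cell cannot be told apart.

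In the control cells, 17 members were detected in both lines. Levels per length were compared as TPM in parental LNCaP cells and as FPKM rescaled to the TPM scale in DU145 shCON cells, and the tables were normalized separately, so the lines are set side by side with no test. At a level of at least 1 in every control library, 22 of the 41 members were detected in LNCaP, against 57.5% of protein-coding genes, and 21 in DU145, against 54.2% of all features. WNT3, WNT7B and WNT10B were the ligands found in both lines, with 7 Frizzleds (FZD1, FZD3, FZD4, FZD5, FZD6, FZD7 and FZD9), LRP5, LRP6, ROR1, RYK, LGR4, RNF43 and ZNRF3. WNT5A, WNT10A, FZD8, ROR2 and TNFRSF19 reached this level in LNCaP alone, and WNT5B, WNT9A, FZD2 and DKK1 in DU145 alone. This asked for 3 libraries in DU145 and 1 in LNCaP, and WNT5A (1.02 TPM in LNCaP, 0.771 to 1.40 in DU145) and WNT10A (1.61 TPM, 0.77 to 1.25) were detected in both lines at a level of at least 0.5, as was WNT9A. The remaining 15 members reached it in neither, AXIN2 among them at 0.566 TPM in LNCaP and a mean of 0.653 in DU145.

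**Figure D1:**
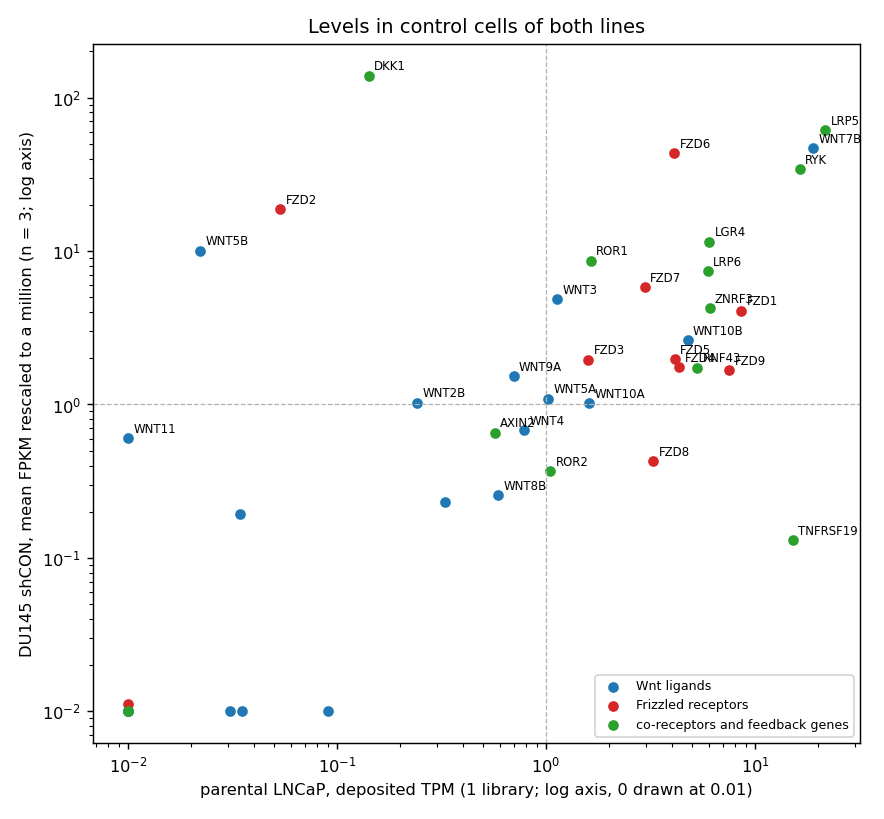
Level of each member in parental LNCaP cells (horizontal, deposited TPM, 1 library, log axis) and in DU145 shCON cells (vertical, mean of 3 libraries, FPKM rescaled to the TPM scale, log axis), with dashed lines at 1 and values of 0 drawn at 0.01. LRP5, WNT7B and RYK lie high in both lines, DKK1, FZD2 and WNT5B lie high only on the DU145 axis, and TNFRSF19 lies high only on the LNCaP axis.

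A ligand and a co-receptor ranked high in both lines. LRP5, at 21.6 TPM in LNCaP and 61.1 in DU145, and WNT7B, at 19.0 and 46.7, held the first 2 places in LNCaP and came next after DKK1 in DU145. DKK1 was the highest member in DU145 at 139, between 128 and 152 in the 3 shCON libraries, yet had 0.141 TPM (5 counts) in parental LNCaP cells. TNFRSF19 had 15.2 TPM in LNCaP and a mean of 0.131 in DU145. In the order of the DU145 levels, LRP5 (56.2 to 69.5), WNT7B (44.8 to 49.6) and FZD6 (36.5 to 50.2) followed DKK1, and the ranges of WNT7B and FZD6 overlapped. LGR5, WNT1 and WNT8A were at 0 in all 8 libraries, and in LNCaP a count of 0 allows up to 3 counts, or 0.147 and 0.167 CPM.

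The first comparison asked which Wnt genes differ between LNCaP-ENZ and parental LNCaP cells. Counts were scaled by the library total (CPM) and compared as a log2 ratio of CPM + 0.1, which understates the change of low genes. Each interval is an exact 95% Clopper-Pearson interval of the split of the counts, without the pseudocount. It covers counting error only, and the ratio compares these 2 libraries, not the conditions. Of the 41 members, 35 had a count in either library and 30 had at least 10 counts over both. Of these 30, 1 was at least 2-fold higher in LNCaP-ENZ (WNT6) and 8 were at least 2-fold lower (TNFRSF19, WNT7A, WNT8B, LGR4, WNT5A, WNT4, FZD5 and ROR1). Among all genes with at least 10 counts, 3.76% were past 2-fold higher and 13.5% past 2-fold lower. Of the 24 members averaging 1 CPM or more, 0 were past 2-fold higher and 6 past 2-fold lower, against 1.84% and 9.57% of all such genes. The median log2 ratio of the 30 members was -0.25, against -0.18 for all such genes, and 21 of the 30 were below 0, against 62.5% of all genes. Scaling by edgeR's TMM factors would raise the log2 ratios by 0.15, which leaves 17 members below 0 and takes ROR1 back inside 2-fold, to -0.88.

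**Figure D2:**
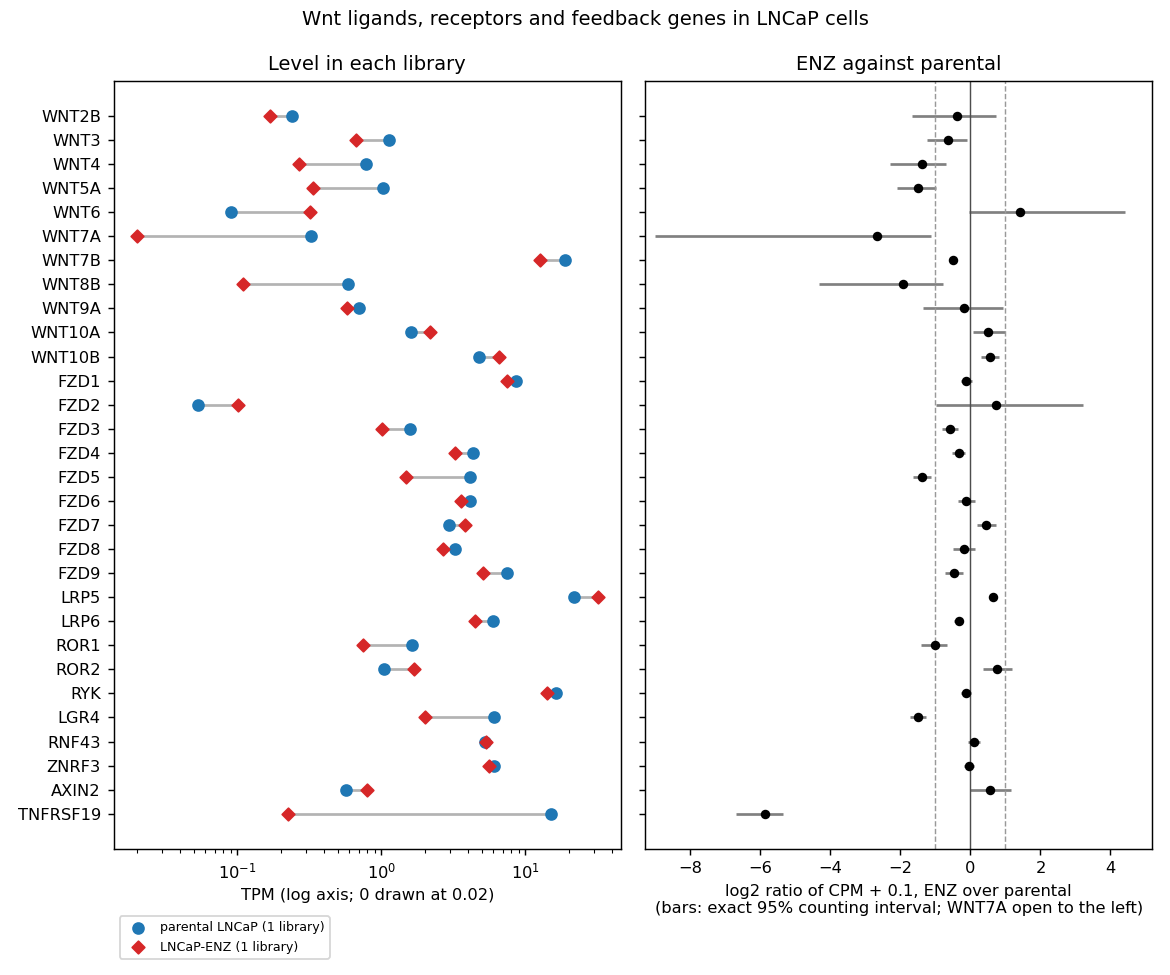
Left, TPM of the 30 members with at least 10 counts in parental LNCaP (circles) and LNCaP-ENZ (diamonds) cells, 1 library each, on a log axis with 0 drawn at 0.02. Right, log2 ratio of CPM + 0.1 with the exact 95% counting interval and dashed lines at 2-fold, where TNFRSF19 at -5.86 lies far to the left of every other member and LRP5, at 0.65, lies on the other side of 0.

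Among the ligands of LNCaP cells, WNT7B was the most abundant. WNT7B (chromosome 22, 46316246 to 46373008, GRCh37, as for all gene positions here), which signals through β-catenin in many epithelia, had 1456 counts (19.0 TPM) in parental and 904 counts (12.7 TPM) in LNCaP-ENZ cells. Its log2 ratio was -0.50 (95% interval -0.62 to -0.38). WNT10B and WNT10A, a closely related pair of ligands, were higher in LNCaP-ENZ. WNT10B (chromosome 12, 49359123 to 49365641) had 221 and 286 counts, 4.76 and 6.62 TPM, with a log2 ratio of 0.56 (0.30 to 0.82). WNT10A (chromosome 2, 219745255 to 219758651) had 75 and 94 counts, 1.61 and 2.17 TPM, with a log2 ratio of 0.50 (0.06 to 0.97). Of these 3 ligands WNT7B was thus lower and WNT10B and WNT10A were higher in LNCaP-ENZ, and WNT7B remained the highest.

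WNT5A, WNT4, WNT8B and WNT7A were past 2-fold lower in LNCaP-ENZ. WNT5A (chromosome 3, 55499743 to 55521670), the ligand best known for signalling without β-catenin through ROR receptors, had 125 and 38 counts, 1.02 and 0.333 TPM, a log2 ratio of -1.48 (-2.09 to -0.99). WNT4 (chromosome 1, 22443798 to 22469519), which acts in development of the reproductive tract, had 60 and 19 counts at a log2 ratio of -1.39 (-2.30 to -0.70), although its exons overlap a long noncoding RNA on the other strand. WNT8B had 23 and 4 counts, with a log2 ratio of -1.92 (-4.33 to -0.78). WNT7A, a relative of WNT7B, had 11 and 0 counts, at least 3.21-fold lower against a floor of 3 counts, while its counting interval reached up to a log2 ratio of -1.14. Of these, only WNT5A had more than 100 counts in the parental library and stayed past 2-fold with a pseudocount of 1, which gave -0.93 for WNT4, -0.80 for WNT8B and -0.62 for WNT7A. WNT6 had 3 and 10 counts, a log2 ratio of 1.41 whose interval of -0.03 to 4.43 includes 0. Among the other ligands, WNT3 had 74 and 41 counts (-0.64, -1.25 to -0.09), WNT2B and WNT9A had between 11 and 17 counts in each library with intervals that include 0, and WNT2, WNT3A, WNT5B and WNT9B had at most 4 counts. WNT1, WNT8A, WNT11 and WNT16 had 0 counts in both libraries.

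Of the Frizzleds, which are the receptors that bind the ligand directly, FZD5 differed most in LNCaP-ENZ cells. FZD5 (chromosome 2, 208627310 to 208634143), a receptor for WNT7 and WNT5A ligands among others, had 531 and 179 counts, 4.13 and 1.49 TPM, with a log2 ratio of -1.37 (-1.63 to -1.13). FZD1, the highest Frizzled, had 732 and 591 counts, 8.58 and 7.45 TPM, and a log2 ratio of -0.12 (-0.28 to 0.04), an interval that includes 0. FZD9 had 345 and 219 counts, 7.51 and 5.12 TPM, with a log2 ratio of -0.46 (-0.72 to -0.22). FZD6 had 316 and 255 counts, 4.10 and 3.55 TPM, at -0.12 (-0.36 to 0.12), and a correction for GC content, chosen after seeing the data, moved it to 0.36. FZD5 was the only Frizzled with at least 10 counts that was past 2-fold. Its level was close to those of FZD4 and FZD6 in the parental library, and between those of FZD3 (1.01 TPM) and FZD8 (2.70 TPM) in the LNCaP-ENZ library. FZD3 (-0.58) and FZD4 (-0.34) were lower with intervals below 0, although the same GC correction moved FZD3 to 0.038, and FZD7 was higher (224 and 269 counts, 0.45, 0.19 to 0.72). FZD8 had 203 and 157 counts with an interval that includes 0, FZD2 had 4 and 7 counts, and FZD10 had 0.

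The co-receptors moved in different directions. LRP5 (chromosome 11, 68080077 to 68216743), which carries the β-catenin signal beside the Frizzled, had 2269 and 3123 counts, 21.6 and 32.0 TPM. LRP5 had a log2 ratio of 0.65 (0.57 to 0.73), which was 0.56 after the GC correction. LRP6, its close relative, had 1172 and 818 counts, 5.93 and 4.45 TPM, a log2 ratio of -0.33 (-0.46 to -0.20) that was -0.034 after the GC correction. LRP5 was thus the more abundant of this pair in both libraries. ROR1 (chromosome 1, 64239690 to 64647181), a receptor for WNT5A, had 211 and 90 counts, 1.63 and 0.749 TPM. ROR1 had a log2 ratio of -1.02 (-1.41 to -0.68), which the GC correction moved inside 2-fold, to -0.93. ROR2, the other ROR receptor, had 86 and 128 counts, 1.05 and 1.67 TPM. ROR2 had a log2 ratio of 0.75 (0.36 to 1.17), which was 0.60 after the GC correction. In the parental library ROR1 was the higher of these receptors per length, and in the LNCaP-ENZ library ROR2 was. RYK (chromosome 3, 133875978 to 133969586), an atypical receptor without kinase activity, had 942 and 759 counts, 16.4 and 14.2 TPM, at -0.12 (-0.26 to 0.02), which became 0.40 after the GC correction.

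Among the R-spondin receptors and feedback genes of LNCaP cells, TNFRSF19 and LGR4 were past 2-fold lower, and RNF43, ZNRF3 and AXIN2 lay within 2-fold. TNFRSF19 (chromosome 13, 24144509 to 24250244) had 1442 counts (15.2 TPM) in parental and 20 counts (0.227 TPM) in LNCaP-ENZ cells, 63.2-fold lower, with a log2 ratio of -5.86 (-6.70 to -5.35). Its log2 ratio was the second lowest of 14767 genes averaging 1 CPM or more, and it lay between -5.97 and -5.08 under every alternative tried. LGR4 (chromosome 11, 27387508 to 27494322), which binds R-spondins and so protects Frizzleds, had 621 and 193 counts, 6.05 and 2.02 TPM, a log2 ratio of -1.49 (-1.74 to -1.26), with exons that overlap the antisense gene LGR4-AS1. RNF43 and ZNRF3, the ubiquitin ligases that LGR4 holds off, had 603 and 567 counts (0.10, -0.07 to 0.27) and 804 and 688 counts (-0.03, -0.18 to 0.11). AXIN2, often read as a measure of β-catenin activity, had 47 and 61 counts, 0.566 and 0.790 TPM. Its log2 ratio was 0.55, with an interval of -0.01 to 1.15 that includes 0. Exons of AXIN2 and of RNF43 each overlap those of a protein-coding gene on the same strand. DKK1 had 5 and 2 counts, and LGR5 had 0 in both libraries. The intervals of AXIN2, RNF43, ZNRF3 and DKK1 thus included 0 when scaled by the library total, and the TMM shift of 0.15 would take those of AXIN2 and RNF43 above 0, although RNF43 was at -0.027 after the GC correction.

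The second comparison asked which Wnt genes differ between DU145-shPAX6 and shCON cells. The deposited values, taken as FPKM, went into limma as log2(FPKM + 0.1) for the 13574 features averaging 0.5 FPKM or more, and p-values were adjusted by Benjamini-Hochberg over all of these features. Nothing in the labels says that the 3 libraries of a group came from separate cultures, so p-values measure the spread between these samples, which may be technical. Of the 41 members, 23 passed the filter. At an adjusted p under 0.05, 0 were higher and 0 lower, against 0.177% and 1.02% of all tested features, and the count was 0 under every alternative that kept all 6 libraries. At an unadjusted p under 0.05, 2 were higher (DKK1 and WNT5B) and 5 were lower (WNT7B, WNT9A, WNT3, LRP5 and FZD9), so 7 of the 23, against 18.3% of all features (4.15% higher and 14.1% lower). The groups did not overlap for 8 members, these 7 and FZD3, against 26.7% of all features (6.7% higher and 20.0% lower), with 3 members higher and 5 lower. Over the 23 members the log2 fold changes had a median of -0.13, against -0.12 for all features, and 13 of the 23 were below 0, against 62.9% of all. The median of the members was positive after quantile normalization (0.19), after median centring (0.041), with a filter of 1 FPKM (0.025) and without shPAX6 library 1 (0.11), so no direction is given for the members as a group.

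**Figure D3:**
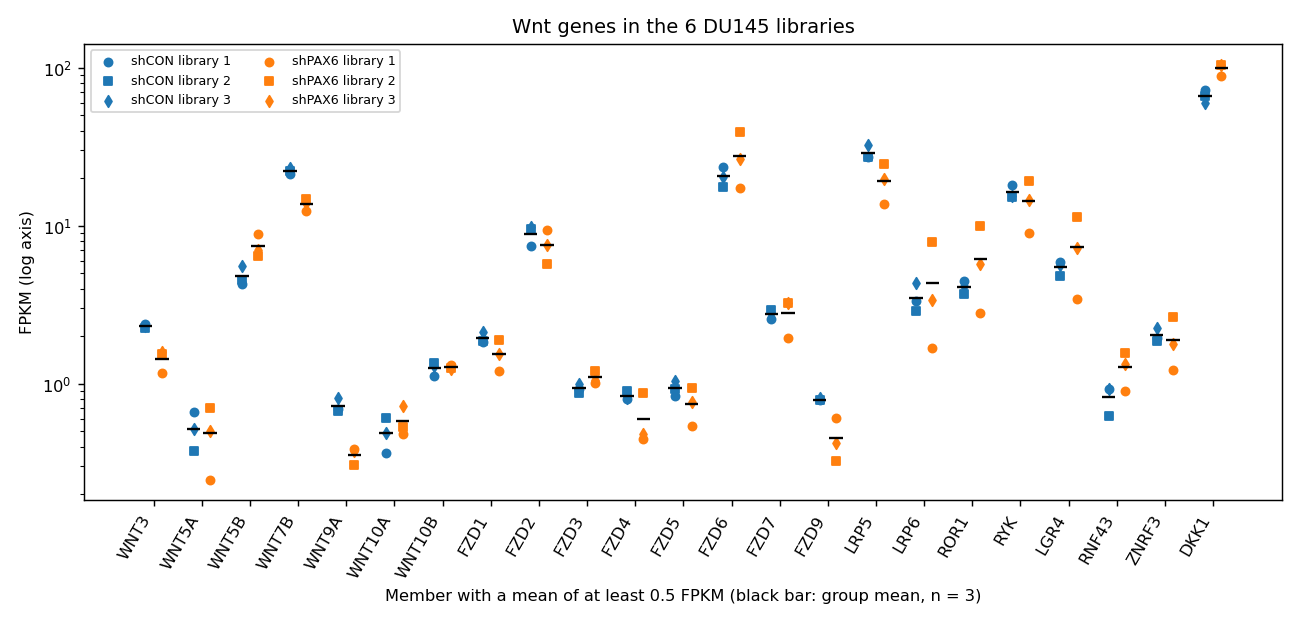
FPKM of the 23 tested members in each DU145 library on a log axis, with a marker shape for each library number and a black bar for the mean of each group of 3. WNT7B and WNT9A lie lower and DKK1 and WNT5B higher in all 3 shPAX6 libraries, while LRP6, ROR1 and LGR4 spread widely between the shPAX6 libraries, with library 2 the highest and library 1 the lowest.

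Among the ligands of DU145 cells, WNT7B was again the most abundant. WNT7B had 21.2, 22.2 and 23.4 FPKM in shCON and 12.4, 14.8 and 13.9 FPKM in shPAX6 libraries. Every shPAX6 library was below every shCON library, with means of 22.3 ± 1.1 and 13.7 ± 1.2 FPKM (SD, n = 3 each). The limma log2 fold change was -0.70 (SE 0.13, adjusted p = 0.059), which did not pass the threshold. Leaving out shPAX6 library 1 gave -0.63 with an adjusted p of 0.023 (limma), and leaving out shPAX6 library 2 gave -0.76 with 0.028. Without any 1 shCON library the limma adjusted p was between 0.24 and 0.37, without shPAX6 library 3 it was 0.24, with the replicate block 0.28, and after the correction for GC content 0.36 at a log2 fold change of -0.51. WNT5B (chromosome 12, 1726222 to 1756378), a ligand of the WNT5 subfamily, had 4.26, 4.54 and 5.56 FPKM in shCON and 8.86, 6.47 and 6.99 FPKM in shPAX6 libraries. It was higher in all 3 shPAX6 libraries, with a limma log2 fold change of 0.62 (SE 0.20, adjusted p = 0.17).

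WNT3 and WNT9A, less abundant ligands, were lower in every shPAX6 library. WNT3 (chromosome 17, 44839872 to 44896126) had 2.38, 2.24 and 2.31 FPKM in shCON and 1.17, 1.54 and 1.60 FPKM in shPAX6 libraries, with a limma log2 fold change of -0.66 (SE 0.22, adjusted p = 0.18). WNT9A (chromosome 1, 228109165 to 228135676) had 0.692, 0.668 and 0.818 FPKM in shCON and 0.388, 0.307 and 0.374 FPKM in shPAX6 libraries, with a limma log2 fold change of -0.86 (SE 0.27, adjusted p = 0.17). Neither passed the threshold, although the groups did not overlap. WNT10B, WNT10A and WNT5A, the other tested ligands, overlapped between the groups, with 1.26 ± 0.12 and 1.28 ± 0.04 FPKM for WNT10B (SD, n = 3 each). Among the 12 ligands under the filter, WNT6 was listed at 0 in all shCON libraries and at 0.272, 0.0534 and 0.10 FPKM in shPAX6 libraries. WNT7A and WNT3A were separated in the other direction, with 0.0884 to 0.149 against 0 to 0.0764 FPKM for WNT7A and 0.0604 to 0.121 against 0 to 0.0465 FPKM for WNT3A. No test was made of these low values. WNT1, WNT8A and WNT9B were listed at 0 in all 6 libraries, and the other ligands under the filter were at 0.691 FPKM or less in every library.

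Of the Frizzleds of DU145 cells, FZD6 was the most abundant and varied most between the shPAX6 libraries. FZD6 (chromosome 8, 104310661 to 104345094), a receptor tied mainly to planar cell polarity, had 23.7, 17.7 and 20.4 FPKM in shCON and 17.5, 39.5 and 26.7 FPKM in shPAX6 libraries. The groups overlapped, with a limma log2 fold change of 0.37 (SE 0.29, adjusted p = 0.56). FZD2 (chromosome 17, 42634812 to 42638630) had 7.41, 9.59 and 9.81 FPKM in shCON and 9.38, 5.70 and 7.53 FPKM in shPAX6 libraries, overlapping, with -0.26 (SE 0.22, adjusted p = 0.60, limma). FZD7 had 2.57, 2.94 and 2.82 against 1.96, 3.22 and 3.26 FPKM, with -0.02 (SE 0.25, adjusted p = 0.98, limma), a value whose sign changed with the scaling. FZD9 (chromosome 7, 72848109 to 72850450) was separated, with 0.789, 0.784 and 0.809 FPKM in shCON and 0.604, 0.325 and 0.423 FPKM in shPAX6 libraries. Its limma log2 fold change was -0.73 (SE 0.29, adjusted p = 0.25). FZD3 was the other separated Frizzled, at 0.927, 0.876 and 0.996 against 1.02, 1.21 and 1.06 FPKM, a limma log2 fold change of 0.21 (SE 0.23, adjusted p = 0.70) that was -0.031 after the GC correction. FZD8, under the filter and therefore not tested, had 0.235, 0.198 and 0.175 FPKM in shCON and 0.0383, 0.0282 and 0.0464 FPKM in shPAX6 libraries, so that the groups lay apart at a low level. FZD1, FZD4 and FZD5 had log2 fold changes of -0.33, -0.47 and -0.31 with overlapping groups, and FZD10 was above 0 in 1 library only.

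LRP5 was the most abundant co-receptor of DU145 cells and the only separated one. LRP5 had 27.3, 27.3 and 32.7 FPKM in shCON and 13.7, 24.5 and 19.7 FPKM in shPAX6 libraries, with means of 29.1 ± 3.1 and 19.3 ± 5.4 FPKM (SD, n = 3 each). Every shPAX6 library was below every shCON library, with a limma log2 fold change of -0.63 (SE 0.22, adjusted p = 0.20). Without shPAX6 library 2 it was -0.82 with a limma adjusted p of 0.044, and after the correction for GC content it was -0.44 with 0.58. RYK had 18.1, 15.3 and 15.5 FPKM in shCON and 9.03, 19.3 and 14.6 FPKM in shPAX6 libraries, which overlapped (limma log2 fold change -0.25, SE 0.27, adjusted p = 0.69), and its sign turned to 0.048 without shPAX6 library 1. LRP6 had 1.69, 7.89 and 3.40 FPKM in the shPAX6 libraries around the shCON values of 3.34, 2.88 and 4.33 FPKM, and ROR1 had 2.83, 9.97 and 5.76 around 4.47, 3.72 and 4.14 FPKM. For LRP6 and ROR1 the spread between shPAX6 libraries was wider than any difference between the groups, with 95% intervals of the log2 fold change of -1.12 to 1.22 and of -0.55 to 1.37. ROR2 was under the filter, at 0.053 to 0.211 FPKM.

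The library order seen in these receptors returned in other members. FZD6, RYK, LRP6, ROR1, LGR4 and ZNRF3 were all highest in shPAX6 library 2 and lowest in shPAX6 library 1. So was MKI67, a marker of dividing cells, at 36.7 and 15.3 FPKM. Within the shPAX6 libraries, WNT5A, WNT7B, FZD1, FZD3, FZD4, FZD5, LRP5 and RNF43 had the same order. WNT5B, WNT9A, FZD2 and FZD9 had the reverse order, highest in shPAX6 library 1 and lowest in shPAX6 library 2. The median log2 FPKM of the tested members was 1.46 in shPAX6 library 2, 0.92 in library 3 and 0.51 in library 1, and it lay between 1.23 and 1.31 in the shCON libraries. Spearman's rho between GC content and the expression of a library relative to the others was 0.23, -0.61 and -0.28 in shPAX6 libraries 1 to 3, and -0.040, 0.52 and 0.36 in the shCON libraries, whose member medians differed little. The part of proliferation and of GC content in these values was not tested.

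**Figure D4:**
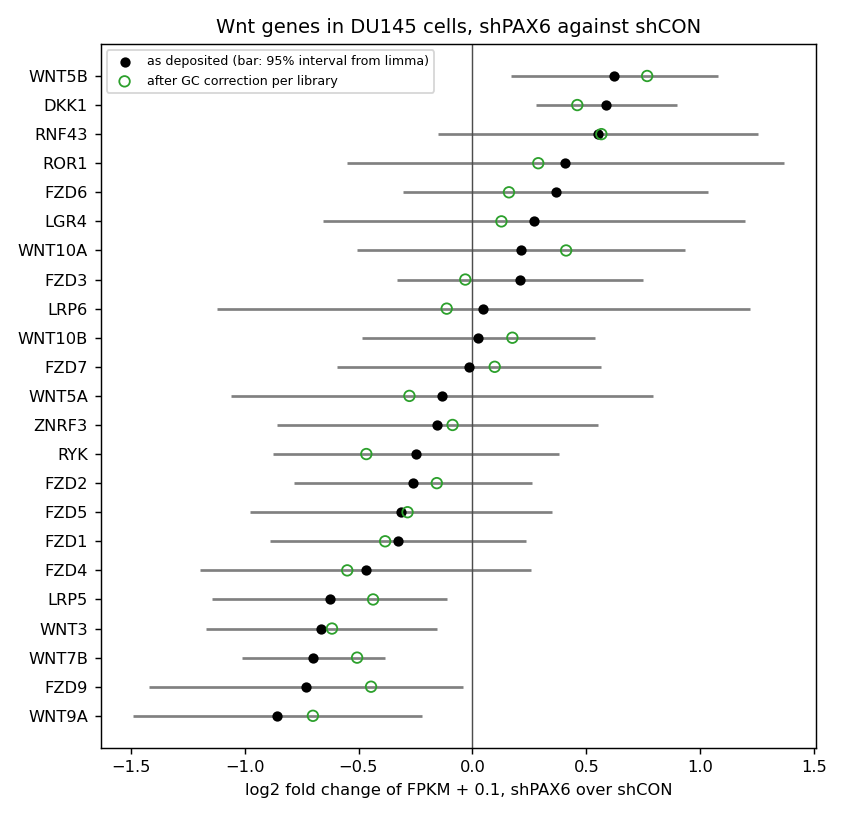
Log2 fold change of FPKM + 0.1 in shPAX6 over shCON cells for the 23 tested members, with the 95% interval from limma (bars, 3 libraries a group) and the value after a per-library GC correction (open circles). Intervals of WNT5B and DKK1 lie above 0 and those of LRP5, WNT3, WNT7B, FZD9 and WNT9A below 0, and none of the 23 passed the adjusted threshold.

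Of the feedback genes of DU145 cells, DKK1 was the most abundant member of all and lay higher in each shPAX6 library, without passing the adjusted test. DKK1 (chromosome 10, 54074041 to 54077417), the secreted inhibitor whose promoter is printed above, had 72.1, 66.0 and 60.4 FPKM in shCON and 89.4, 104 and 105 FPKM in shPAX6 libraries. Every shPAX6 library was above every shCON library, with means of 66.2 ± 5.8 and 99.4 ± 8.7 FPKM (SD, n = 3 each). The limma log2 fold change was 0.59 (SE 0.13, adjusted p = 0.083), and without shPAX6 library 1 it was 0.66 with an adjusted p of 0.019. The limma adjusted p was between 0.25 and 0.42 without any 1 shCON library, 0.053 without shPAX6 library 2, 0.28 without shPAX6 library 3 and 0.34 with the replicate block. DKK1 exons overlap the antisense gene PRKG1-AS1. Since a use of strand in counting is not given in the sources used here, reads of such pairs cannot be told apart. Exons of WNT2B, FZD4, FZD6, FZD8 and RNF43 also overlap a gene on the other strand. LGR4 had 5.93, 4.79 and 5.67 FPKM in shCON and 3.43, 11.4 and 7.26 FPKM in shPAX6 libraries, which overlapped (limma log2 fold change 0.27, SE 0.40, adjusted p = 0.78). RNF43 and ZNRF3 overlapped between the groups too, with limma log2 fold changes of 0.55 (SE 0.30, adjusted p = 0.39) and -0.15 (SE 0.30, adjusted p = 0.84). AXIN2 was under the filter, with 0.297, 0.359 and 0.279 FPKM in shCON and 0, 0.419 and 0.136 FPKM in shPAX6 libraries. TNFRSF19 lay between 0 and 0.123 FPKM in all 6 libraries and LGR5 was listed at 0, so the largest difference of the LNCaP comparison could not be followed in DU145.

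Members with values in both comparisons can be set side by side, although the treatments and the tables differ. WNT7B, the leading ligand of both lines, had log2 values of -0.50 (LNCaP-ENZ) and -0.70 (shPAX6, adjusted p = 0.059 by limma, not past the threshold). LRP5 had 0.65 in LNCaP-ENZ and -0.63 in shPAX6 cells (adjusted p = 0.20 by limma). WNT3 had -0.64 and -0.66 (adjusted p = 0.18 by limma), and FZD9 had -0.46 and -0.73 (adjusted p = 0.25 by limma), so that none of these passed the test in DU145. ROR1 and LGR4, past 2-fold lower in LNCaP-ENZ, had wide intervals that include 0 in DU145, and WNT5A had -0.13 there with an interval of -1.06 to 0.79. No test compared these values between the lines.

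The rest of the pathway was described with 70 other genes in 7 lists, covering Wnt secretion, R-spondins, antagonists, the cytoplasmic relay, nuclear effectors, planar cell polarity and common targets. In DU145, 50 of the 70 were tested, and 0 were higher and 1 lower at an adjusted p under 0.05, against 0.177% and 1.02% of all features. The gene that fell was PTK7, a pseudokinase receptor of planar cell polarity that binds Wnt ligands. It had 13.3, 12.9 and 16.3 FPKM in shCON and 4.47, 6.23 and 5.68 FPKM in shPAX6 libraries, a limma log2 fold change of -1.36 (SE 0.19, adjusted p = 0.026). This call was lost with the GC correction, with the replicate block, and when any shCON library or shPAX6 library 3 was left out, each of which left 0 of the 50 genes called lower. The planar cell polarity list had the lowest median log2 fold change, -1.02 over 9 tested genes. Of these, 6 were lower at an unadjusted p under 0.05 (limma), against 14.1% of all features. Within the shPAX6 libraries, every tested gene of this list except SCRIB was highest in library 2 and lowest in library 1, the order described above for other members and MKI67. The part of this library order in the list median was not tested. Over all 50 genes the median was -0.34, against -0.12 for all features, and the list of targets had a median of 0.018. At an unadjusted p under 0.05 (limma), 17 of the 50 were lower and 1 was higher, against 14.1% and 4.15% of all features. The gene that was higher was CCND1, a cell cycle gene and common target named here after its values were seen. CCND1 had a mean of 80.0 ± 5.4 FPKM under shCON against 134 ± 28 FPKM under shPAX6 (SD, n = 3 each). Its limma log2 fold change was 0.72 (SE 0.17, adjusted p = 0.092). Of the same list of targets, 2 genes were lower at an unadjusted p under 0.05, also named after their values were seen. They were TCF7 (limma log2 fold change -1.03, adjusted p = 0.099) and SOX9 (limma log2 fold change -0.74, adjusted p = 0.24).

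In LNCaP, 54 of the 70 genes had at least 10 counts, with a median log2 ratio of -0.12, and 2 were past 2-fold higher and 6 past 2-fold lower, against a median of -0.18 and shares of 3.76% and 13.5% over all genes. WLS, the carrier that takes Wnt ligands to the cell surface, had 99 and 224 counts, a log2 ratio of 1.35 (1.02 to 1.72). APC, a scaffold of the β-catenin destruction complex, had 488 and 192 counts (-1.15, -1.40 to -0.91), and TCF7L1, a TCF factor that mainly represses, had 145 and 50 counts (-1.32, -1.84 to -0.87). PRICKLE2, a planar cell polarity gene, had 33 and 2 counts (-3.02, -6.96 to -1.89). PRICKLE1, MMP7 and TLE4 were the other genes past 2-fold lower, with at most 21 counts in a library, and VANGL2, with 2 and 10 counts, the other past 2-fold higher.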

How the data were processed

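The 8 RNA-seq samples of LNCaP and DU145 cells were used, each placed in a group by its sample title. The study's 6 ATAC-seq samples were left out. The study's methods give oligo-dT priming, alignment with HISAT2 (GRCh37) and quantification with StringTie. The annotation and any use of strand in counting are not given in the sources used here, and the labels describe another library kit than the methods. The LNCaP table holds raw counts deposited by the authors, and TPM, which the authors made from the count over gene length. The DU145 values deposited by the authors were taken to be FPKM, since the table does not name its unit and the values are not whole and have unequal sums. FPKM hides the depth of the DU145 libraries, so no count test and no counting interval could be given there.

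The members, the other pathway lists and the tests were chosen with earlier results of these data known. Counts of the LNCaP libraries were divided by the library total and compared as a log2 ratio of CPM + 0.1, called at 2-fold for genes with at least 10 counts, with no test (1 library per arm). DU145 values were fitted with limma 3.58.1 in R 4.3.3 (lmFit, eBayes with trend, two-sided, threshold 0.05) on log2(FPKM + 0.1) across the whole table, whose pseudocount shrinks the fold changes of low genes. The scripts were tested on simulated data. Members named with every library are, in DU145, those with an adjusted or unadjusted p under 0.05, those whose groups did not overlap with a log2 fold change of at least 0.5, and the 3 most abundant of each role (ligands, Frizzleds, others), and in LNCaP those past 2-fold and the 3 most abundant of each role. FZD3, FZD8, WNT6 in DU145 and the members with a wide spread between shPAX6 libraries were added after their values were seen. Other members outside this rule are also given with values. They include WNT3A, WNT7A and AXIN2 in DU145, and WNT3, FZD3, FZD4, FZD7, FZD8, LRP6, ROR2, RNF43, ZNRF3 and AXIN2 in LNCaP.

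Alternatives were pseudocounts of 1 and 0.01, stricter and no filters, TMM (edgeR 4.0.16) and DESeq2 1.42.0 size factors or the median ratio set to 0 for LNCaP, and quantile normalization, median centring, no trend, the replicate block, a GC correction per library (loess, span 0.5), a threshold of 0.01 and each library left out in turn for DU145. The GC content was that of the longest transcript of each gene in the annotation lifted to GRCh37. Some marker genes that the design covers are not reported here.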

Additional observations from a re-analysis of the deposited data

How the results depend on the processing

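With 1 LNCaP library per arm, no LNCaP difference has a replicate check, and in DU145 the depth is unknown, so members under 0.5 FPKM were not tested. Over all alternatives, 437 values were classed as unchanged. A DU145 member had to keep direction and side of the threshold, a LNCaP member its counting interval, and a median had to move by less than the spread. A LNCaP member could thus lose its 2-fold call and still be among the 437, as WNT4 did with a pseudocount of 1 (-0.93). Counts had some room, and 8 to 12 members with groups that did not overlap (no filter) was classed as unchanged. Another 43 values or counts moved further, 4 calls were gained and 7 values of DU145 members changed sign. Sign was not counted for medians or for LNCaP members within 2-fold. In LNCaP, FZD1, FZD6 and RYK, each at -0.12, turned to 0.027, 0.026 and 0.024 with TMM factors. They were also positive with DESeq2 size factors and with the median ratio set to 0. The DU145 member median turned positive in the settings given above. The 7 counted sign changes were those of FZD7 and RYK in DU145. FZD7 went from -0.02 to 0.19 (quantile normalization), 0.16 (median centring) and 0.098 (GC correction, with and without the replicate block). With single libraries left out it lay between -0.14 and 0.22, at 0.025 without shCON library 2. RYK lay between -0.50 and 0.048, the latter without shPAX6 library 1. The cause was not tested.

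Leaving out single DU145 libraries gave 0 to 1 members higher and 0 to 2 lower at the adjusted threshold, and 7 to 13 members whose groups did not overlap, with 13 without shPAX6 library 1 and 13 without shPAX6 library 2, where 5920 of 13625 and 6632 of 13562 of all features did not overlap. Calls over all features moved from 163 to 924 and 899 without these 2 libraries, and to 0 without shCON library 1 or 3. Of the other pathway genes, 0 to 1 were higher and 0 to 7 lower. The replicate numbers did not pair the libraries (correlations of -0.17, -0.37 and 0.052 between same-numbered deviations). With the replicate block, 0 members and 0 of all features passed, and the pathway genes called lower went from 1 (PTK7) to 0, as they did with the GC correction (alone or with the block) and at a threshold of 0.01, while a pseudocount of 1 gave 2 and median centring gave 1 called higher. Of all features, 24 of 163 calls were higher, against 38 of 120 with the GC correction, 74 of 236 with quantile normalization and 28 of 100 with median centring.

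In LNCaP a pseudocount of 1 gave 0 members higher and 4 lower, with 1 and 3 of the other pathway genes, since it shrinks low genes. A filter of mean CPM of at least 1 gave 0 members higher, with 1 and 2 of the other pathway genes, because fewer genes remain. The deposited TPM gave 1 pathway gene higher. The GC correction for LNCaP was chosen after seeing the data. Detection at a level of at least 2 left 10 members in both lines.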

Other observations

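Of the Wnt ligand genes, 8 lie in 4 pairs less than 100 kb apart on GRCh37, and the members of a pair can be set side by side. WNT6 and WNT10A, 6.3 kb apart on chromosome 2, had log2 ratios of 1.41 (3 and 10 counts) and 0.50 in LNCaP-ENZ cells, and in DU145 WNT6 was listed above 0 in the shPAX6 libraries alone while WNT10A, with groups that overlapped, changed by 0.21 on the log2 scale. WNT9A and WNT3A, 59.0 kb apart on chromosome 1, both lay lower in every shPAX6 library of DU145 than in any shCON library, and in LNCaP they had 17 and 13 counts (WNT9A) and 2 and 0 counts (WNT3A). WNT3 had log2 values of -0.64 in LNCaP and -0.66 in DU145, where it did not pass the test, and its neighbour WNT9B, 32.8 kb away on chromosome 17, had 4 and 1 counts in LNCaP and was listed at 0 in DU145. WNT10B had log2 values of 0.56 in LNCaP and 0.02 in DU145, and WNT1, 6.6 kb away on chromosome 12, was at 0 in all libraries. These are descriptions of a few low genes, and no test was made of the pairs.

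The GC content of the members differed along with their direction in DU145. The 13 tested members below 0 had a median transcript GC content of 53.5%, and the 10 above 0 had 43.9%. Spearman's rho between GC content and log2 fold change over the 23 members was -0.43, close to the -0.36 of all genes, and -0.14 after the GC correction. After that correction WNT5B had the largest log2 fold change of the tested members, 0.77, with a limma adjusted p of 0.097 (Benjamini-Hochberg), and DKK1 had 0.46 with 0.095.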
